A study of Mus musculus with 4 samples.

Results

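The genes described here encode respiratory complexes II, III, IV and V, cytochrome c and some of the factors that assemble them. They were taken by symbol from the gene table: every symbol beginning with Sdha, Sdhb, Sdhc, Sdhd, Uqcr, Atp5 or Cox followed by a digit, together with Cyc1 and Cycs. The rule used no measured value and found 60 of 24054 genes: 4 subunits of complex II, 9 of complex III, 17 of complex IV and 15 of complex V, cytochrome c itself, and 14 genes for assembly factors and related proteins.

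The libraries came from soleus muscle of *mdx* mice, which lack dystrophin and are a model of Duchenne muscular dystrophy. All mice were female C57BL/10ScSn-DMDmdx/J animals by the study's methods, and infusions into the femoral vein began at 8 weeks of age and were repeated monthly for 12 months. One group received mouse cardiosphere-derived cells (mCDCs), stromal cells grown out of the heart of a C57BL/10ScSn/J mouse and used at passage 5, and the other received the carrier medium alone (vehicle). Each group has 2 libraries, no dystrophin-sufficient muscle is among them, and the mCDCs are described as coming from a heart, so differences between donors of the cells were not sampled. The comparison asks how the muscle transcriptome of *mdx* mice differed after a year of mCDC dosing. The labels do not say whether replicates came from separate mice, and p-values measure only the spread between these libraries.

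The inner mitochondrial membrane carries the respiratory chain. Complex II (succinate dehydrogenase) passes electrons from succinate to ubiquinone, complex III (the cytochrome bc1 complex) passes them on to cytochrome c, and complex IV (cytochrome c oxidase) hands them to oxygen. Complexes III and IV pump protons, and complex V (ATP synthase) uses the returning protons to make ATP. Complex II is built wholly from nuclear genes, whereas complexes III, IV and V each contain subunits encoded in mitochondrial DNA, and those mitochondrial genes were not analysed here. Soleus is a muscle rich in slow, oxidative fibres, which depend on this chain.

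The libraries held 22481391 to 27187425 expected counts each (RSEM estimates of reads per gene), and the 60 genes took between 2.44% and 2.88% of them. Counts were scaled to CPM, counts relative to library size, with trimmed mean of M-values (TMM) factors and tested for 13652 genes in all. The labelled tissue fitted its markers: all 8 muscle defining markers passed the filter on low counts and summed to between 81395 and 88331 CPM, and 10 slow fibre markers to between 82997 and 101200 CPM. Following the thresholds of the study, a gene was called changed when its fold change exceeded 1.5 and edgeR's quasi-likelihood F-test gave an unadjusted p under 0.05. By that rule 172 genes (1.26%) were higher and 374 (2.74%) lower with mCDCs. The split was 121 higher and 508 lower with scaling by total counts alone, and 206 higher and 288 lower after a trend with transcript length and GC content was removed. No gene reached an adjusted p of 0.05 in edgeR, 947 (6.94%) had an unadjusted p under 0.05, and DESeq2 gave 51 genes an adjusted p under 0.05.

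No gene of complexes II to V was called in either direction, yet nearly all of them were measured slightly higher with mCDCs. Of the 60 genes 57 passed the filter on low counts, and 51 of those 57 had a log2 fold change above 0, against 6609 of 13652 genes (48.4%) in the whole table. Their median log2 fold change was 0.15, beside -0.0094 for all genes tested. A single member, Cox19, had an unadjusted p under 0.05 in edgeR, and none did in DESeq2. That count was 0 with scaling by total counts and without either mCDC library, 2 without vehicle replicate 2 (Atp5d and Cyc1), and 3 both with a block for replicate number (Cox19, Cyc1 and Cycs) and with the length and GC trend removed (Cox19, Cycs and Sdhaf2). The smallest adjusted p among the members was 0.713 in edgeR, so no gene passed the test after adjustment, which does not show that the groups were alike. Standard errors of the log2 fold change ran from 0.13 to 0.52 with a median of 0.15, about the size of the median difference itself.

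Both mCDC libraries lay above both vehicle libraries in 23 of the 57 genes, where 19.2% of all genes did so. In none did both lie below, where 19.5% of all genes did so. The remaining 34 overlapped between groups. Vehicle replicate 1 was the lowest of the 4 libraries in 42 of the 57 genes, against 26.4% of all genes, and mCDC replicate 2 the highest in 41, against 28.0%. The size of the difference therefore depends on which vehicle library is used: the median was 0.050 without vehicle replicate 1, with 39 of 57 genes above 0, and 0.25 without vehicle replicate 2, with 55 of 57. Without mCDC replicate 1 it was 0.20 and without mCDC replicate 2 it was 0.091. In 39 of the 57 genes (68.4%) the direction held whichever library was left out, against 52.1% of 13618 genes tested in every such fit. Because the tissue was measured in bulk, fewer muscle fibres and less of an RNA per fibre cannot be told apart.

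**Figure D1:**
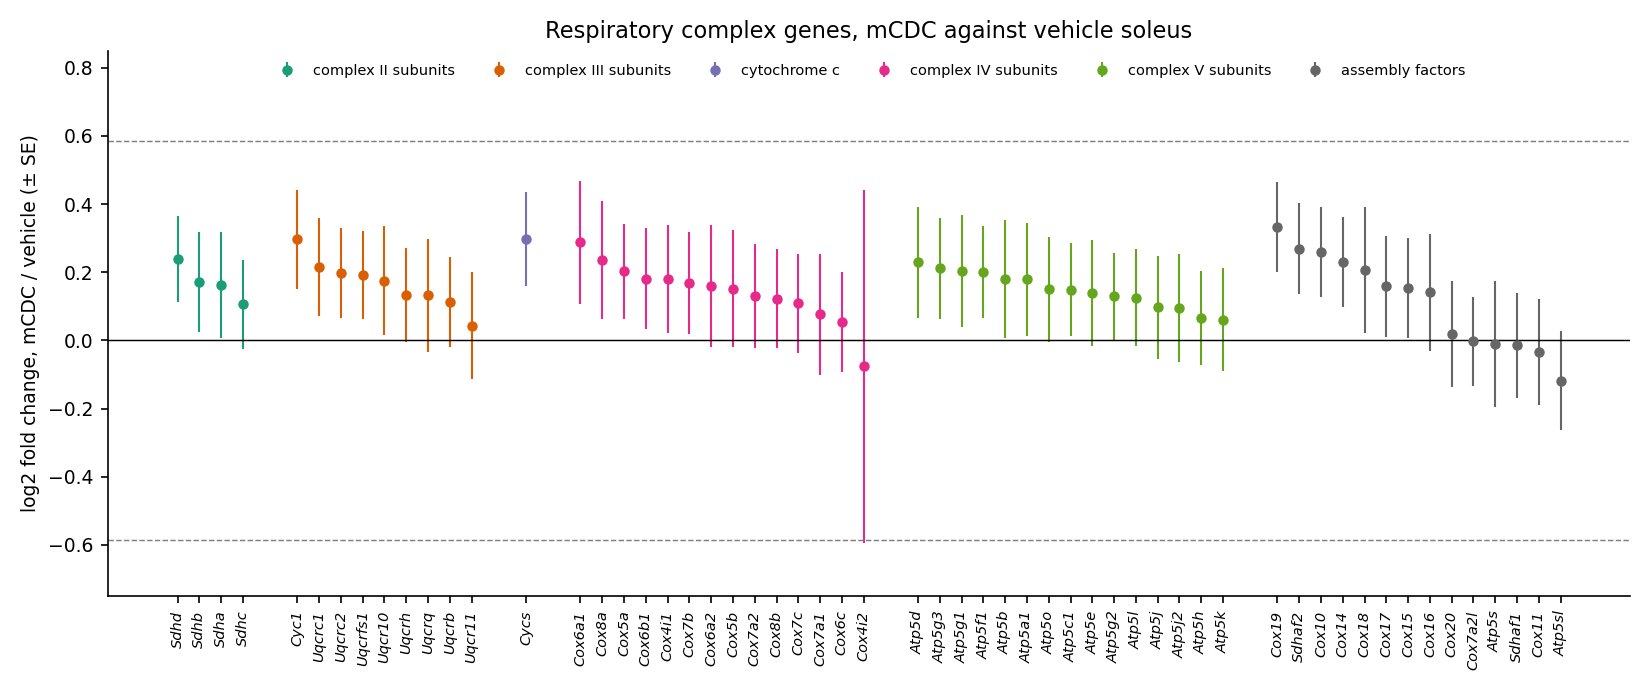
Log2 fold change (mCDC over vehicle, y axis, points with SE from edgeR) of the 57 genes tested (x axis), grouped by complex and ordered by size, with dashed lines at a 1.5-fold change. Of the 57 points 51 lie above 0 and none lies beyond a dashed line.

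Promoter sequence is shown because nuclear respiratory factor 1, GABP, YY1 and the ERR receptors are known regulators of respiratory genes. RefSeq windows of 300 bases (250 before and 50 after the start, GRCm38.p6) were found for 45 of the 57 genes, and each was searched on both strands for 5 fixed motifs. The NRF1 motif (GCGCA, any base, then GCGC) was found in 10 of the 45 (22.2%, against 10.9% of 10758 tested genes with a window). These 10 were Sdha, Sdhd, Uqcrc1, Cox6a1, Atp5c1, Atp5g2, Atp5g3, Atp5h, Atp5k and Atp5o. Their log2 fold changes lay between 0.06 (Atp5k) and 0.29 (Cox6a1). CCGGAAGT, for GABP, was found in 8 (17.8% against 8.62%), and AAGATGGCG, for YY1, in 4 (8.89% against 3.36%). TCAAGGTCA, for ERR, was found in 2, Sdhd and Atp5g3 (4.44% against 0.297%), and the MEF2 motif (CTATTTA followed by TAG) in 0 (against 0.242%). In all, 20 of the 45 held at least 1 of these motifs, none of which contains another. A match is a description of the letters and not evidence of binding. Below are the windows of 4 genes from different complexes that hold an NRF1 match, the first and the last being also the 2 with an ERR match, in the direction of transcription and with capitals marking the matches on either strand. The Sdhd window lies at chr9:50603800-50604099 (minus strand), Uqcrc1 at chr9:108936398-108936697 (plus strand), Cox6a1 at chr5:115348909-115349208 (minus strand) and Atp5g3 at chr2:73911277-73911576 (minus strand).
Sdhd: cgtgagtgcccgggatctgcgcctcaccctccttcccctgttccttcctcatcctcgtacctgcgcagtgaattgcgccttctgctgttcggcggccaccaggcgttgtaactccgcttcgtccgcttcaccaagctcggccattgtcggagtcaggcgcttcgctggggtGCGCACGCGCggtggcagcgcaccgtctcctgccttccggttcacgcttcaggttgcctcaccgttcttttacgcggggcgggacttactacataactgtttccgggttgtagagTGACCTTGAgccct
Uqcrc1: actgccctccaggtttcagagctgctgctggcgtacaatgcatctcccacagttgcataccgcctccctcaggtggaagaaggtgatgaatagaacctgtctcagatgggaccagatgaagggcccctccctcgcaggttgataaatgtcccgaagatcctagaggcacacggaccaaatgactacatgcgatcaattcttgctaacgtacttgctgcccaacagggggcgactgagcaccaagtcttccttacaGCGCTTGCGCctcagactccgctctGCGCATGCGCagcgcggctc
Cox6a1: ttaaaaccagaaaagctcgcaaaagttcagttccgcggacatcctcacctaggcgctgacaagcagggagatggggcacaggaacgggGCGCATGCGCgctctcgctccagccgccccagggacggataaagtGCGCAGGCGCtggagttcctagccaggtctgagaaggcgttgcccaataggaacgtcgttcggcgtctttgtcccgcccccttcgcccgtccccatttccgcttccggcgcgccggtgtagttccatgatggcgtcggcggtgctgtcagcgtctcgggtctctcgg
Atp5g3: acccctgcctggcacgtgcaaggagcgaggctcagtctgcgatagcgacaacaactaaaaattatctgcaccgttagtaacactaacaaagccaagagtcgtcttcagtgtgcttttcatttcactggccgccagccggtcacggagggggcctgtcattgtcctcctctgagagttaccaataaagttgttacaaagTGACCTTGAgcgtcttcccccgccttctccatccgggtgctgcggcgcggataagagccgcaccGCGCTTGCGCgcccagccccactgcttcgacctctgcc

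Complex II had all 4 subunits above 0, with a median log2 fold change of 0.17 and single values between 0.11 and 0.24. Summed over the complex, the level was 2301 and 2245 CPM with mCDCs and 2059 and 2009 CPM with vehicle, a ratio of the group means of 1.12 with no overlap between the groups. Its median was the least dependent on a single library among the complexes. It stayed between 0.15 and 0.19 when each library was left out, and all 4 genes kept their direction. Single genes moved more than this median, Sdha and Sdhb in opposite directions. Sdha, the flavoprotein that oxidises succinate, was measured at 879.5 and 819 CPM with mCDCs and 831 and 687 CPM with vehicle. Vehicle replicate 1 lay between the mCDC libraries, and the log2 fold change was 0.16 ± 0.15 (SE). Its value ranged from 0.030 without vehicle replicate 2 to 0.31 without vehicle replicate 1. Sdhb, the iron-sulfur subunit, had 635 and 653 CPM with mCDCs and 521 and 624 CPM with vehicle, with a log2 fold change of 0.17 ± 0.15. The Sdhb value was 0.051 without vehicle replicate 1 and 0.31 without vehicle replicate 2. Sdhc and Sdhd anchor the enzyme in the membrane. Sdhc had 523 and 506 CPM with mCDCs and 477 and 480.0 CPM with vehicle, a log2 fold change of 0.11 ± 0.13 and the smallest difference of the complex. Sdhd, whose promoter window holds both an NRF1 and an ERR match, had 264 and 267 CPM with mCDCs and 231 and 219 CPM with vehicle. Both mCDC libraries were above both vehicle libraries in Sdhb, Sdhc and Sdhd (19.2% of all genes), and Sdhd had the largest log2 fold change of the complex, 0.24 ± 0.13 (adjusted p = 0.735, edgeR).

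All 9 genes of complex III were above 0, with a median of 0.18 and values between 0.04 and 0.30. The summed level was 4336 and 4581 CPM with mCDCs and 3688 and 4162 CPM with vehicle, so the groups did not overlap but the vehicle libraries differed by a ratio of 1.13, beside a ratio of 1.14 between the group means. Cyc1, cytochrome c1, carries the haem that reduces cytochrome c. It had 660.4 and 703 CPM with mCDCs and 514 and 596 CPM with vehicle. These groups did not overlap, and its log2 fold change of 0.30 ± 0.14 was the largest of the complex (adjusted p = 0.726, edgeR). Uqcrc1 and Uqcrc2 are the core subunits on the matrix side. Uqcrc1, with NRF1 matches in its window, had 1018 and 1030.2 CPM with mCDCs and 837 and 927 CPM with vehicle (0.22 ± 0.14 on the log2 scale), and Uqcrc2 had 501 and 494 CPM with mCDCs and 449 and 418 CPM with vehicle (0.20 ± 0.13). Uqcrfs1, the Rieske iron-sulfur protein, had 450.1 and 453 CPM with mCDCs and 387 and 404 CPM with vehicle (0.19 ± 0.13). In these catalytic and core genes, and in the small subunit Uqcrb, both mCDC libraries exceeded both vehicle libraries (19.2% of all genes). The other 4 genes, Uqcr10, Uqcr11, Uqcrh and Uqcrq, encode small subunits without a redox centre, and in all of them the groups overlapped. Uqcr11 had the smallest difference, with 301 and 328 CPM with mCDCs and 268 and 343 CPM with vehicle (0.04 ± 0.16), and vehicle replicate 2 was its highest library. Its direction turned without vehicle replicate 1, to -0.12, without mCDC replicate 2, to -0.02, with total-count scaling, to -0.04, and with the length and GC trend removed, to -0.01. The log2 fold changes of Uqcrb, Uqcrh, Uqcrq and Uqcr10 lay between 0.11 and 0.18. Without vehicle replicate 1 the median of complex III was 0.050, and without vehicle replicate 2 it was 0.23.

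Cycs encodes somatic cytochrome c, the soluble carrier between complexes III and IV. It had 519 and 572 CPM with mCDCs and 424 and 464 CPM with vehicle. Both mCDC libraries were above both vehicle libraries, the group means (± SD, n = 2) were 545 ± 37.2 and 444 ± 28.3 CPM, and the log2 fold change was 0.30 ± 0.14 (adjusted p = 0.724, edgeR). It stayed between 0.23 and 0.37 when each library was left out. Part of the Cycs reads was divided among related sequences by the authors' estimation, since its expected counts are not whole numbers, and its level is uncertain to that degree, as are those of Uqcrc2 and Cox15.

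**Figure D2:**
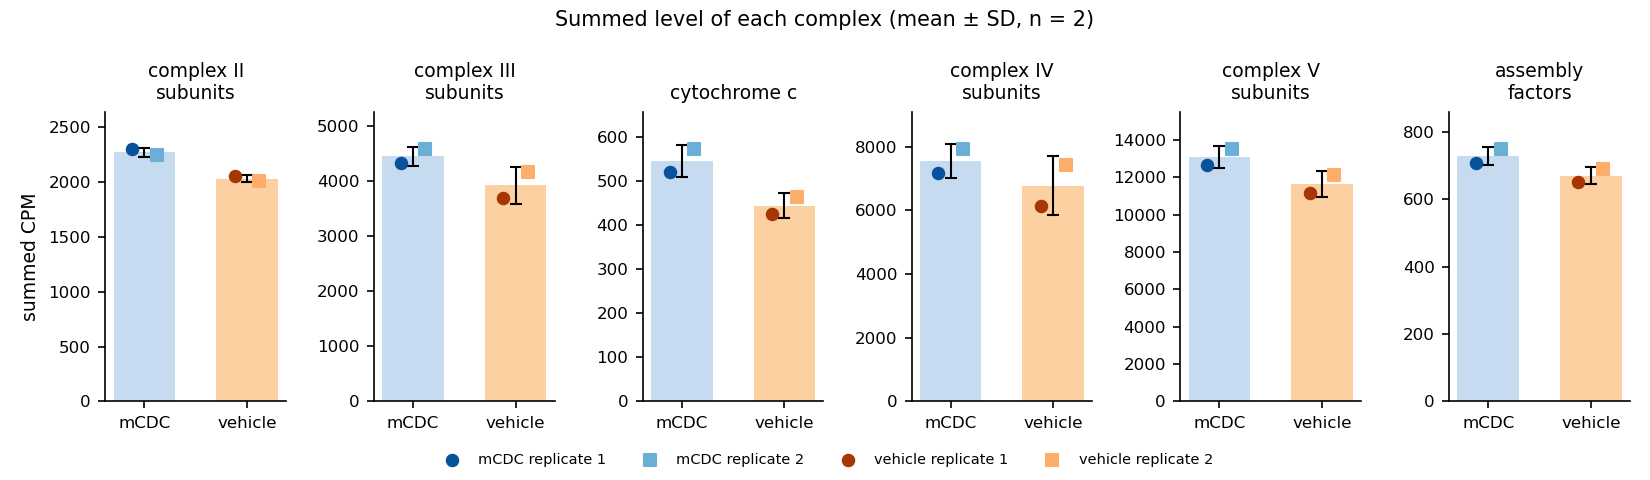
Summed CPM (y axis, from 0) of the genes of each complex, cytochrome c and the assembly factors in each library (points), with bars for the group mean and error bars for SD (n = 2). The groups overlap for complex IV only, where vehicle replicate 2 (7434 CPM) lies above mCDC replicate 1 (7158 CPM).

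Complex IV was the group in which the 2 vehicle libraries differed most. Its summed level was 7158 and 7913 CPM with mCDCs and 6119 and 7434 CPM with vehicle. Vehicle replicate 2 exceeded mCDC replicate 1, and the ratio between the vehicle libraries (1.22) was larger than the ratio between the group means (1.11). Of 14 genes tested 13 were above 0, with a median of 0.16, but in only 1, Cox5a, did both mCDC libraries lie above both vehicle libraries (19.2% of all genes). Vehicle replicate 1 was lowest in 13 of the 14. The median was 0.020 without vehicle replicate 1 and 0.32 without vehicle replicate 2, and 8 of 14 genes kept their direction whichever library was left out.

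Cox4i1, the common isoform of the subunit that helps to regulate the enzyme by ATP, had 761 and 874 CPM with mCDCs and 657 and 785 CPM with vehicle (0.18 ± 0.16). Cox4i2, the alternative isoform known from lung and from low oxygen, was close to the detection limit with 0.795 and 1.83 CPM with mCDCs and 0.839 and 1.86 CPM with vehicle. Replicates of Cox4i2 differed more than groups did, and its log2 fold change of -0.08 ± 0.52 ran from -0.76 to 0.61 as single libraries were left out. Cox5a and Cox5b are subunits present in every tissue. Cox5a had 671 and 745 CPM with mCDCs and 605 and 625 CPM with vehicle (0.20 ± 0.14), and Cox5b had 978 and 1128 CPM with mCDCs and 837 and 1059 CPM with vehicle (0.15 ± 0.17). The Cox5b groups overlapped, and its difference was -0.0047 without vehicle replicate 1. The largest log2 fold change of the complex was that of Cox6a1, the ubiquitous isoform of subunit 6a with 2 NRF1 matches in its window, at 36.2 and 45.9 CPM with mCDCs and 29.7 and 37.5 CPM with vehicle (0.29 ± 0.18, adjusted p = 0.763, edgeR). The Cox6a1 groups overlapped, since vehicle replicate 2 lay above mCDC replicate 1, and without mCDC replicate 2 the value was 0.11. The genes of the testis isoforms, Cox6b2, Cox7b2 and Cox8c, did not pass the filter on low counts. Cox6b2 had between 1 and 6 counts in each library, Cox7b2 had 1 count in mCDC replicate 1 and 0 elsewhere, and Cox8c had 0 counts in all 4 libraries, which allows up to 3 counts per library.

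3 subunits of complex IV are made from paired genes, with an isoform of heart and skeletal muscle and a ubiquitous isoform. Compared as levels in CPM per kilobase of transcript, the muscle isoform was the higher in every library for each of the 3 pairs. For subunit 6a, the Cox6a2 to Cox6a1 ratio was 54.3 and 44.8 with mCDCs and 53.4 and 53.7 with vehicle. For subunit 7a, the Cox7a1 to Cox7a2 ratio was 2.17 and 2.11 with mCDCs and 2.07 and 2.34 with vehicle. For subunit 8, the Cox8b to Cox8a ratio was 4.95 and 4.26 with mCDCs and 5.04 and 4.85 with vehicle. The excess of the muscle isoform was thus far larger for subunit 6a than for the other two, and mCDC replicate 2 had the lowest ratio for subunits 6a and 8. The log2 ratio differed between groups (mCDC minus vehicle) by -0.12, -0.04 and -0.11, with p = 1.0, 1.0 and 0.667 in two-sided exact permutation tests (n = 2 per group), whose smallest possible p is 0.333 in this design. No outcome of these tests could have passed a threshold of 0.05, so the differences are a description.

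Taken singly, the muscle isoforms overlapped between groups. Cox6a2 had 2338 and 2446 CPM with mCDCs and 1889 and 2395 CPM with vehicle (0.16 ± 0.18), Cox7a1 had 224 and 249 CPM with mCDCs and 187 and 261 CPM with vehicle (0.08 ± 0.18), and Cox8b had 278 and 310.4 CPM with mCDCs and 247 and 294 CPM with vehicle (0.12 ± 0.15). Vehicle replicate 1 was the lowest library for all 3. For Cox7a1 vehicle replicate 2 was the highest, and the difference was -0.14 without vehicle replicate 1, 0.34 without vehicle replicate 2 and -0.0068 with total-count scaling. The ubiquitous Cox7a2 had 173 and 198 CPM with mCDCs and 152 and 187 CPM with vehicle (0.13 ± 0.15), and Cox8a had 85.8 and 111 CPM with mCDCs and 74.8 and 92.4 CPM with vehicle (0.24 ± 0.17). In Cox7a2 and Cox8a the groups overlapped, with mCDC replicate 2 the highest library. The other 4 subunits tested, Cox6b1, Cox6c, Cox7b and Cox7c, had log2 fold changes between 0.05 and 0.18, also with overlapping groups.

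**Figure D3:**
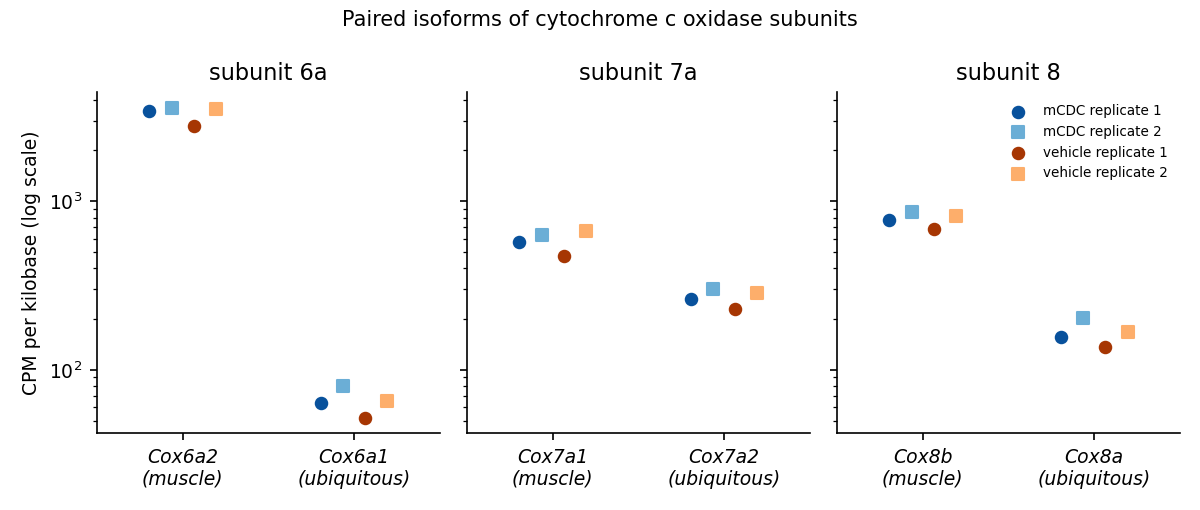
Level in CPM per kilobase of transcript (y axis, log scale) of the muscle and the ubiquitous isoform of 3 complex IV subunits (x axis) in each of the 4 libraries (points). The muscle isoform is higher in every library, by 44.8 to 54.3 times for subunit 6a, 2.07 to 2.34 times for subunit 7a and 4.26 to 5.04 times for subunit 8.

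Complex V had all 15 subunit genes above 0, with a median of 0.15 and values between 0.06 and 0.23. Its summed level was 12682 and 13505 CPM with mCDCs and 11163 and 12122 CPM with vehicle, a ratio of the group means of 1.12 without overlap. Both mCDC libraries lay above both vehicle libraries in 6 of the 15 (19.2% of all genes): Atp5a1, Atp5b, Atp5c1, Atp5f1, Atp5g2 and Atp5g3. Atp5a1 and Atp5b encode the alpha and beta subunits of the catalytic head, where ATP is made. Atp5a1 had 3153 and 3248 CPM with mCDCs and 2897 and 2756 CPM with vehicle (0.18 ± 0.17), and Atp5b had 3621 and 3870.3 CPM with mCDCs and 3179 and 3429.7 CPM with vehicle (0.18 ± 0.17). By level per kilobase, Atp5b and Atp5a1 ranked next after Cox6a2 (3334 CPM per kilobase), at means of 1840 and 1220 over the 4 libraries.

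Within the rotor, Atp5d, the delta subunit, had the largest log2 fold change of complex V. Its levels were 668 and 726 CPM with mCDCs and 520.4 and 669.5 CPM with vehicle. Vehicle replicate 1 was far below the other 3 libraries, and vehicle replicate 2 lay just above mCDC replicate 1. The log2 fold change was 0.23 ± 0.16 (adjusted p = 0.776, edgeR), 0.062 without vehicle replicate 1 and 0.42 without vehicle replicate 2. Atp5g1, Atp5g2 and Atp5g3 encode the same mature protein, subunit c of the proton-carrying ring, from 3 loci. Per kilobase, Atp5g3 was the highest of them in every library (784 to 1029 CPM per kilobase), followed by Atp5g2 (258 to 298) and Atp5g1 (162 to 226). The order of Atp5g2 and Atp5g1 rests on the transcript lengths used, 731 and 2655.5 bases. By CPM, without a length, Atp5g1 was above Atp5g2 in every library. Atp5g3, the other gene with an ERR match, had 667 and 739 CPM with mCDCs and 563 and 651 CPM with vehicle (0.21 ± 0.15), Atp5g2 had 215 and 218 CPM with mCDCs and 188 and 208 CPM with vehicle (0.13 ± 0.13), and Atp5g1 had 525 and 601 CPM with mCDCs and 431 and 546 CPM with vehicle (0.20 ± 0.16). The groups overlapped for Atp5g1 only. Atp5o, the stalk subunit that joins head and stator, had 535 and 583 CPM with mCDCs and 452 and 556 CPM with vehicle (0.15 ± 0.15), again with overlapping groups. Atp5k, subunit e of the membrane part, had the smallest difference, with 204 and 229.9 CPM with mCDCs and 187 and 229.9 CPM with vehicle (0.06 ± 0.15), which became -0.08 without vehicle replicate 1, -0.03 without mCDC replicate 2 and -0.02 with total-count scaling. The other 7 genes of complex V had log2 fold changes between 0.07 (Atp5h, subunit d of the stator) and 0.20 (Atp5f1, subunit b of the stator). The median of complex V was 0.047 without vehicle replicate 1 and 0.24 without vehicle replicate 2.

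The 14 assembly factors and related genes were expressed at much lower levels, summing to 709 and 749 CPM with mCDCs and 653 and 690 CPM with vehicle. Their median log2 fold change was 0.15, 9 of 14 were above 0, and both mCDC libraries lay above both vehicle libraries in 7, where 19.2% of all genes did so (Cox10, Cox14, Cox15, Cox16, Cox18, Cox19 and Sdhaf2). Cox19, a copper-handling factor of complex IV, had 58.5 and 61.3 CPM with mCDCs and 49.3 and 45.9 CPM with vehicle. The groups did not overlap, and its log2 fold change of 0.33 ± 0.13 was the largest of all 57 genes, with an unadjusted p of 0.037 and an adjusted p of 0.713 (edgeR). It stayed between 0.28 and 0.39 when each library was left out and did not reach a 1.5-fold change in any of them. Cox10 and Cox15 act in turn to make the haem A of complex IV. Cox10 had 90.9 and 98.9 CPM with mCDCs and 76.1 and 82.3 CPM with vehicle (0.26 ± 0.13), and Cox15 had 43.6 and 43.1 CPM with mCDCs and 42.1 and 35.8 CPM with vehicle (0.15 ± 0.15). Cox17, which delivers copper, had 79.6 and 91.4 CPM with mCDCs and 69.9 and 83.2 CPM with vehicle (0.16 ± 0.15), with vehicle replicate 2 just above mCDC replicate 1. Cox7a2l, which helps complexes III and IV join into supercomplexes, had 164 and 179 CPM with mCDCs and 164 and 179 CPM with vehicle (-0.0030 ± 0.13). Its groups were interleaved and its difference was near 0. Atp5sl, named for its likeness to an ATP synthase coupling factor, had the lowest value, with 51.1 and 44.1 CPM with mCDCs and 49.4 and 53.9 CPM with vehicle (-0.12 ± 0.14). Of the other 8, Sdhaf2, which puts flavin into Sdha, had the highest value (0.27 ± 0.13) and Cox11, a copper factor, the lowest (-0.03 ± 0.15).

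**Figure D4:**
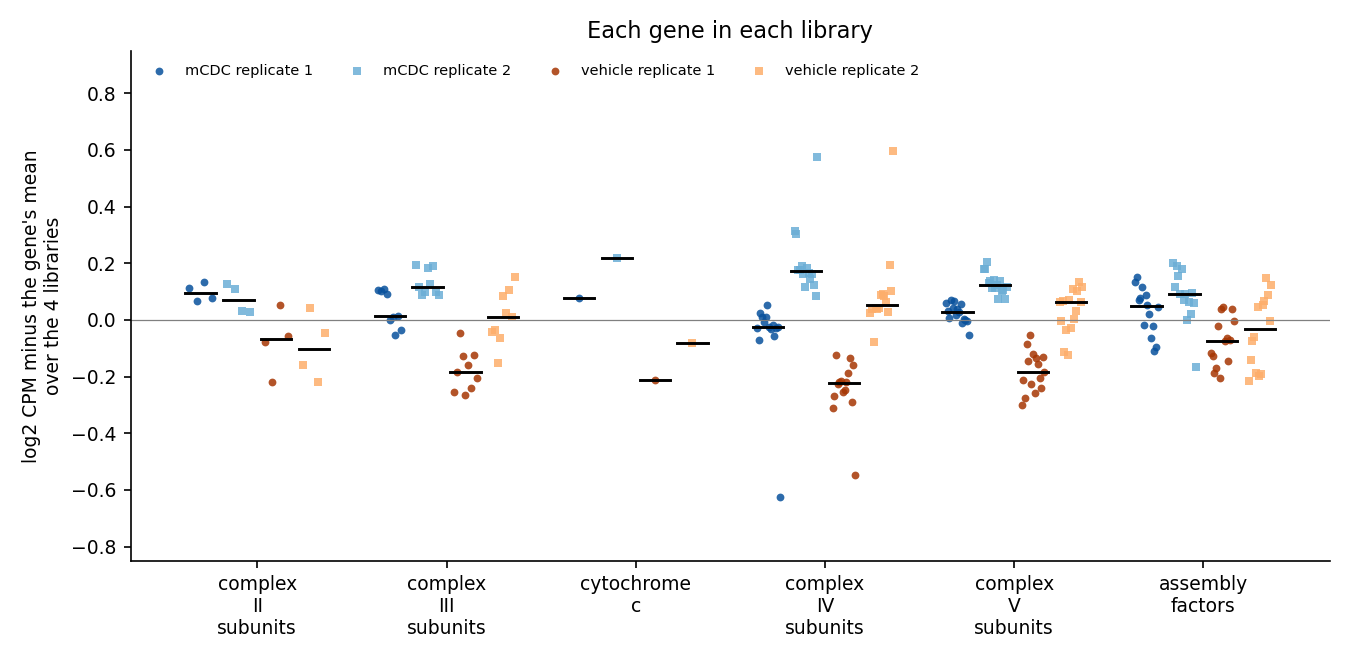
Log2 CPM of each gene minus its own mean over the 4 libraries (y axis) for each complex (x axis), with a point per gene, colours and symbols for libraries and a black line at the median of the genes in that library. In complexes III, IV and V vehicle replicate 1 lies lowest and mCDC replicate 2 highest, whereas in complex II both vehicle libraries lie below both mCDC libraries.

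The difference between the 2 vehicle libraries varied with transcript length. Over the 57 genes, the log2 ratio of vehicle replicate 2 to vehicle replicate 1 correlated with transcript length at Spearman's rho = -0.507 and with GC content at 0.470; these correlations run across genes of the same 2 libraries and are a description. Over 13533 genes with a known length they were -0.209 and 0.264. Among the 22 subunit genes with transcripts of up to 755 bases, vehicle replicate 1 was lowest in 21, the median ratio of vehicle replicate 2 to vehicle replicate 1 was 1.202, and both mCDC libraries lay above both vehicle libraries in 4 (19.2% of all genes). Among the 21 longer subunit genes, vehicle replicate 1 was lowest in 16, the median ratio was 1.107, and 12 had both mCDC libraries above both vehicle libraries. Median log2 fold changes were 0.13 for the shorter and 0.18 for the longer genes. The log2 fold change itself correlated with length at 0.321 over the members and, in the opposite direction, at -0.257 over the 13533 genes. The log2 ratio of mCDC replicate 2 to mCDC replicate 1 correlated with length at -0.432 over the members and -0.0845 over the 13533 genes. With a trend of length and GC content removed from every gene, 51 of 57 members were again above 0, and the median of the members exceeded that of all genes by 0.11, compared with 0.16 before. The part of transcript length in the difference between groups was not tested further.

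**Figure D5:**
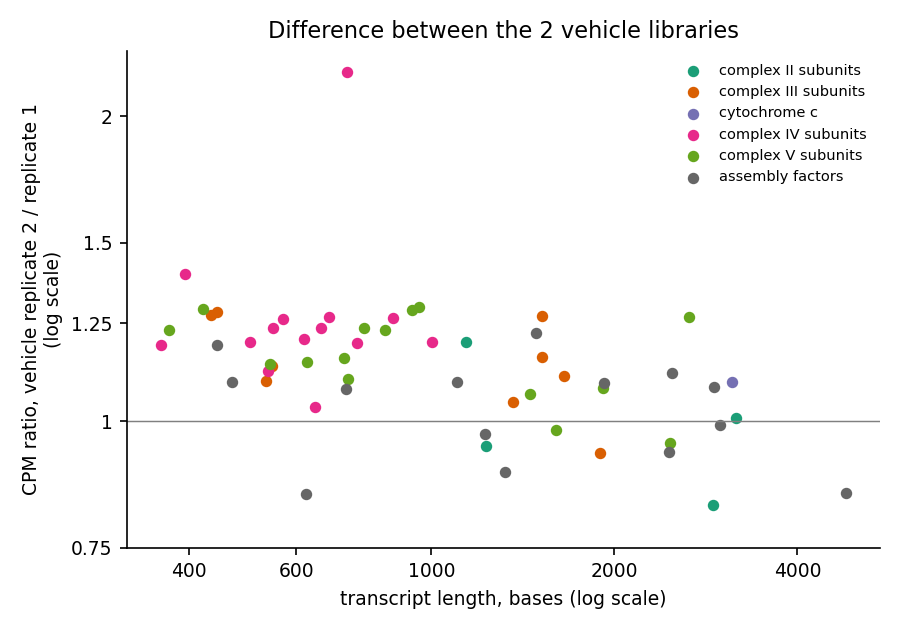
Ratio of CPM in vehicle replicate 2 to vehicle replicate 1 (y axis, log scale) against transcript length in bases (x axis, log scale) for the 57 genes tested, coloured by complex. Subunit transcripts of up to 755 bases lie between 1.03 and 2.21 and longer ones between 0.827 and 1.30 (Spearman's rho = -0.507 across genes).

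Other genes of oxidative metabolism had median differences between 0.13 and 0.16 on the log2 scale. All 36 listed subunits of complex I, which feeds electrons from NADH into the chain, were above 0, with a median log2 fold change of 0.15, 0 called and 1 with an unadjusted p under 0.05 in edgeR. Their summed level was 9471 and 10042 CPM with mCDCs and 8128 and 9457 CPM with vehicle, so both mCDC libraries exceeded both vehicle libraries by a small margin. All 14 genes of the tricarboxylic acid cycle were above 0, with a median of 0.16, 0 called and 0 with an unadjusted p under 0.05, and in 9 of them both mCDC libraries lay above both vehicle libraries (19.2% of all genes). Their sum was 10265 and 10062 CPM with mCDCs and 9178 and 8920 CPM with vehicle. In this list vehicle replicate 1 was the lowest library in 7 genes and vehicle replicate 2 in the other 7, unlike complexes III, IV and V. Of 31 further assembly and partner proteins of complexes II to V outside the symbol rule 25 were above 0, the median was 0.13 and 0 were called. Among these, Sco2, a copper chaperone of complex IV, had 7.12 and 8.86 CPM with mCDCs and 6.11 and 4.95 CPM with vehicle, a log2 fold change of 0.53 ± 0.23 and an unadjusted p of 0.047 (adjusted p = 0.713, edgeR). It was the only gene of the 31 with an unadjusted p under 0.05, and it was named after its values were seen. Hccs, which attaches haem to cytochrome c and was also named after its values were seen, had 43.4 and 43.8 CPM with mCDCs and 38.0 and 29.2 CPM with vehicle (0.38 ± 0.16).

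The regulators of these genes were split. Of 16 transcription factors and coactivators of mitochondrial biogenesis 11 were above 0 with a median of 0.11, and 1 was called higher and 1 lower. Ppargc1a encodes PGC-1alpha, the coactivator best known for driving mitochondrial biogenesis in slow muscle. It had 35.7 and 29.6 CPM with mCDCs and 60.3 and 45.6 CPM with vehicle. Both mCDC libraries were below both vehicle libraries, and Ppargc1a fell, with a log2 fold change of -0.70 ± 0.18, an unadjusted p of 0.0049 and an adjusted p of 0.612 (edgeR). The call was lost without vehicle replicate 1 (-0.48), without mCDC replicate 2 (-0.57) and after removal of the length and GC trend (-0.48). Pprc1, a related coactivator, had 28.5 and 30.7 CPM with mCDCs and 19.4 and 17.4 CPM with vehicle. It rose, with a log2 fold change of 0.69 ± 0.15 (adjusted p = 0.560, edgeR), and the call held in every alternative run. Esrra, the nuclear receptor ERR alpha, was at 0.26 ± 0.14, Nrf1, nuclear respiratory factor 1, at 0.16 ± 0.17, and Tfam, which packages and transcribes mitochondrial DNA, at 0.11 ± 0.14 on the log2 scale. Below 0 lay Ppara, a nuclear receptor for fatty acids, at -0.52 ± 0.23, Gabpa, the DNA-binding subunit of GABP, at -0.24 ± 0.16, Esrrg, ERR gamma, at -0.16 ± 0.18, and Yy1 at -0.0052 ± 0.14. Both mCDC libraries were below both vehicle libraries in 3 of the 16, Ppargc1a, Ppara and Gabpa (19.5% of all genes). They were above both in 6 of the 16, Pprc1 and Esrra among them (19.2% of all genes). None of the 7 genes from Esrra to Yy1 passed the test.

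Genes of fibre type and of other cell types also differed between these libraries. Fast fibre markers summed to 42042 and 34901 CPM with mCDCs and 34365 and 42458 CPM with vehicle, with 0 of 12 called and a median log2 fold change of 0.04. 5 of the 12, Tnni2, Tnnt3, Tnnc2, Mylpf and Myl1, were lowest in vehicle replicate 1, the library that was lowest for most respiratory genes. Another 5, Myh1, Myh4, Pvalb, Actn3 and Atp2a1, were lowest in mCDC replicate 2, the library that was highest for most respiratory genes. Myh4, of the fastest fibres, was at 2096 CPM in mCDC replicate 1 and between 47.5 and 411 CPM in the other 3 libraries. The 10 slow fibre markers had a median of 0.16, 9 above 0 and 0 called, and were lowest in vehicle replicate 2 for 9 of the 10. All 10 fibroblast and matrix markers were highest in vehicle replicate 2, with sums of 785 and 637 CPM with mCDCs and 761 and 1197 CPM with vehicle. Their median was -0.47 and 3 of them fell (Pdgfra, Lum and Col1a2), each of which lost its call without vehicle replicate 2. With all 4 libraries their log2 fold changes were -0.74, -1.02 and -0.61, and without vehicle replicate 2 they were -0.23, -0.47 and -0.31. Pdgfra and Col1a2 also missed a threshold at log2 fold changes nearer to those with all 4 libraries, at -0.57 and -0.54 without mCDC replicate 2 and -0.55 and -0.50 with the length and GC trend removed, as did Pdgfra with the replicate block (-0.69) and with no filter on low counts (-0.74). Endothelial markers summed to 170 and 140 CPM with mCDCs and 129 and 299 CPM with vehicle, with 0 of 8 called and all 8 highest in vehicle replicate 2. Macrophage markers summed to between 45.1 and 77.6 CPM, and Ucp1, which defines brown fat, did not pass the filter. The part of these cell types in the difference between respiratory genes was not tested.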

How the data were processed

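RNA from soleus of *mdx* mice given mCDCs or vehicle was sequenced by the authors (2 libraries per group). The labels name a TruSeq Stranded mRNA kit and the paper's methods an xGen Broad-Range kit, and which was used is not settled here. Values are RSEM expected counts per gene symbol, deposited by the authors without normalization. The submitters' processing notes list Bowtie2 2.1.0, RSEM 1.2.15 and mm10. Depth was 22481391 to 27187425 expected counts per library. Of all values 15.7% were not whole (tolerance 0.001), among them values of 8 members whose reads were partly shared with other sequences (Atp5f1, Atp5j, Cox11, Cox15, Cox7c, Cycs, Uqcr10 and Uqcrc2).

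Expected counts were rounded and tested in R 4.3.3 with edgeR 4.0.16 (filterByExpr, TMM, glmQLFit and glmQLFTest with legacy = FALSE), with Benjamini-Hochberg adjustment over 13652 genes. A call needed both a change of more than 1.5 times and an unadjusted p below 0.05. CPM used TMM-scaled library sizes with no prior count, fitted log2 fold changes carry edgeR's default prior count, and log2 CPM in isoform ratios a prior count of 2. Each SE was obtained from the log2 fold change and the F statistic (its absolute value over root F). Alternatives were other scalings (RLE, upper quartile, total counts), no filter or at least 10 counts in every sample, the legacy form, a block for replicate number, an offset for transcript length and GC content (splines with 5 degrees of freedom), DESeq2 1.42.0 and leaving out each library. Scripts were tested on simulated data. Transcript length and GC content are medians over RefSeq-linked GENCODE transcripts of GRCm38, and promoter windows are from RefSeq (GRCm38.p6). The members and gene lists were chosen with earlier results of these data known. Values were given for core and catalytic subunits and paired isoforms fixed by name, for the highest and lowest log2 fold change of each complex, for members with an unadjusted p under 0.05, and for list genes that were called or whose list moved with a result.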

Additional observations from a re-analysis of the deposited data

How the results depend on the processing

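No member was called under any of the 13 alternatives, and the median log2 fold change of each complex stayed above 0 in all of them. Among the 45 named genes 568 of 585 values kept their direction. These include genes outside the complexes that were named because they were called in the same data. Of all 57 members tested 39 kept their direction whichever library was left out. Leaving out 1 library at a time gave 112 to 397 genes called higher and 236 to 834 lower in the whole table (172 and 374 with all), and medians of 0.15 to 0.19 for complex II, 0.050 to 0.23 for complex III and 0.089 to 0.15 for the assembly factors. Where this left 1 library in a group, that library was taken to vary as the other group did. At an adjusted p under 0.05, 91 genes passed when mCDC replicate 1 was absent, 17 when mCDC replicate 2 was, 1 and 0 in the fits lacking vehicle replicate 2 and vehicle replicate 1, and 51 in DESeq2, against 0 in edgeR with all libraries, and the cause was not tested. Scaling by total counts shifted the median of all genes to -0.089 and lowered the median of every class, to 0.087 for complex II, 0.093 for III, 0.073 for IV, 0.068 for V and 0.070 for the assembly factors, with 45 instead of 51 members above 0, while the members' median remained 0.17 above that of all genes. Upper quartile scaling gave 0.14 for complex II and 0.12 for the assembly factors. Among the named genes directions turned for Cox7a1 (-0.0068), Uqcr11 (-0.039) and Atp5k (-0.022) with total counts, for Uqcr11 (-0.010) with the length and GC trend removed, and for Cox7a2l with RLE factors (0.00053) and DESeq2 (0.0090). Of the other members, Atp5h (-0.016), Cox6c (-0.028) and Cox20 (-0.061) turned with total counts, Cox20 with upper quartile scaling (-0.013), and Atp5s with the length and GC trend removed (0.043) and in DESeq2 (0.0021). When single libraries were left out, values ran from -0.76 to 0.61 for Cox4i2, -0.0047 to 0.33 for Cox5b, -0.14 to 0.34 for Cox7a1, -0.011 to 0.29 for Cox7a2, -0.067 to 0.061 for Cox7a2l, -0.12 to 0.23 for Uqcr11 and -0.078 to 0.22 for Atp5k. The replicate numbers are shared between groups but the labels do not tie them to animals or batches. Deviations of same-numbered libraries correlated at -0.039 over 13652 genes and 0.75 over the members. Pairing was not adopted, since the labels do not give it, although the value over the members was large. The members include Cox4i2, at low counts, whose ratios of replicate 2 to replicate 1 were 2.21 with vehicle and 2.30 with mCDCs. How far Cox4i2 set the value over the members was not tested. With a replicate block 172 genes were called higher, 308 lower and 0 members. With 2 libraries per group and a median SE of 0.15 on the log2 scale, differences of the size measured in most members could not be resolved gene by gene.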

Other observations

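Genes outside the respiratory chain that differed beside it are given here as values. Of 7 injury and regeneration markers 3 rose, Myog, Myod1 and Pax7, with log2 fold changes of 1.07, 0.84 and 0.76 (edgeR adjusted p of 0.612, 0.635 and 0.700), and the median of the list was 0.15. The call of Myog was lost without mCDC replicate 2 (0.51), that of Myod1 without mCDC replicate 1 (0.44) and without vehicle replicate 1 (0.64), and that of Pax7 in DESeq2 and without any 1 of mCDC replicate 1, mCDC replicate 2 and vehicle replicate 2 (0.65 to 0.79). Summed levels of that list were 660 and 674 CPM with mCDCs and 687 and 635 CPM with vehicle. Of 7 red cell markers tested 1 fell, the haemoglobin alpha gene Hba-a2 at -1.04, whose reads are hard to separate from those of its near copy Hba-a1, and the list summed to 440.1 and 454 CPM with mCDCs and 392 and 719.8 CPM with vehicle. Hbb-b2 and Hbb-bt held identical values in all 4 libraries. Of 9 macrophage markers Cd68 rose, at 4.13 and 15.4 CPM with mCDCs and 2.71 and 4.15 CPM with vehicle, and without mCDC replicate 2 its log2 fold change was 0.27 instead of 1.49. Its p also missed the threshold in DESeq2 (1.53), without vehicle replicate 1 (1.23) and without vehicle replicate 2 (1.84), where the log2 fold change stayed large. Csf1r fell, with a log2 fold change of -0.67, and its call was lost without vehicle replicate 2 (-0.30) and without mCDC replicate 2 (-0.50). Its p alone missed the threshold in DESeq2 (-0.66), with no filter on low counts (-0.67) and with the replicate block (-0.64), where the fold was nearly the same.

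No adipocyte or Schwann cell marker was called, and 1 of the former and 0 of the latter had an unadjusted p under 0.05 in edgeR. Adipocyte markers summed to 8633 and 5918 CPM with mCDCs and 8945 and 6698 CPM with vehicle (median log2 fold change -0.23). Car3, which slow muscle fibres also express, made up nearly all of each sum, at 8480.0 and 5768 CPM with mCDCs and 8756 and 6480.1 CPM with vehicle. Of the markers more particular to fat, Adipoq was at 3.33 and 3.33 CPM with mCDCs and 5.46 and 1.49 CPM with vehicle and Cfd at 27.9 and 25.6 CPM with mCDCs and 44.6 and 13.3 CPM with vehicle, and both, like Plin1 and Cidec, were highest in vehicle replicate 1 and lowest in vehicle replicate 2. Of the 8 adipocyte markers 7 were highest in vehicle replicate 1. The exception was Fabp4, the 1 with an unadjusted p under 0.05, at 115 and 114 CPM with mCDCs and 124 and 199.9 CPM with vehicle. Schwann cell markers summed to 65.3 and 67.9 CPM with mCDCs and 63.1 and 87.1 CPM with vehicle (median -0.44). Of the brown adipocyte markers 4 of 6 were tested, and Ppargc1a, which the regulator list also holds, was the 1 called. Levels of Ucp1 and Otop1 did not pass the filter.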
